A study of Mus musculus with 3 samples.

Results

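Lambda light chain B cells are the minority of mouse B cells whose antigen receptor pairs a heavy chain with a lambda light chain in place of a kappa light chain. They were taken from peripheral blood mononuclear cells (PBMCs) of young mice (8 weeks old), aged mice (16 months old) and aged-GA mice (16 months old, given glycyrrhizic acid, a licorice compound, for 1 month), with 1 droplet library per group. Per the study's methods the mice were female C57BL/6 animals, aged-GA mice received the compound by tail vein injection and controls received saline, whereas the labels give no treatment for young and aged mice. How the blood of several mice was combined was not given in the sources used here, so mouse-to-mouse spread could not be measured. With 1 library per group no test between groups was possible, and intervals given for shares, levels and ratios are exact 95% intervals that cover counting error only.

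Members were chosen by their counts of unique molecular identifiers (UMIs, single captured RNA molecules). Barcodes with at least 200 genes, at most 7.5% mitochondrial UMIs and under 20% globin UMIs were kept. Members then held at least 4 UMIs of the B cell genes Cd79a, Cd79b and Ms4a1, at most 1 UMI of Cd3d, Cd3e and Cd3g, fewer than 10 UMIs of Jchain, and at least 5 UMIs of the lambda constant genes Iglc1, Iglc2 and Iglc3, in excess of Igkc. This selected 988 of the 44212 deposited barcodes. The young library gave 147 of them, the aged 447 and the aged-GA 394. Kappa B cells, selected by the same limits with Igkc in excess, numbered 10681 (2107, 3651 and 4923 in the same order). No barcode of a lambda B cell occurred in more than 1 library. Median depth per lambda B cell in the young, aged and aged-GA libraries was 3655, 3042 and 3646 UMIs, against 3383, 3092 and 3773 UMIs in kappa B cells.

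In the bone marrow a developing B cell usually rearranges its kappa genes first and turns to lambda genes when no usable kappa chain results. The kappa locus has 1 constant gene, whereas the mouse lambda locus has several constant genes, each with its own joining segment, and very few V genes. One light chain type is then kept by the cell and its progeny.

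The lambda genes lie on chromosome 16 of mm10 in GENCODE M21, on the minus strand. Iglc1 spans chr16:19061618-19062071, Iglc3 chr16:19065230-19065681 and Iglc2 chr16:19198396-19200351, while Igkc spans chr6:70726435-70726966 on the plus strand. The V genes are Iglv1 at chr16:19085017-19085500, Iglv3 at chr16:19241207-19241690 and Iglv2 at chr16:19260401-19260859. The first 120 bases of the constant exon after the codon at the splice site are shown because the members were chosen by these genes and because 2 of them are close copies. Capitals mark bases of Iglc1 and Iglc3 that differ from Iglc2, and bases of Iglc2 that differ from Iglc3.
Iglc1: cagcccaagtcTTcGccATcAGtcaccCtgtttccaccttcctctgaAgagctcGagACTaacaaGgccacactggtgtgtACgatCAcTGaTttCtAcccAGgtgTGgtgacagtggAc
Iglc2: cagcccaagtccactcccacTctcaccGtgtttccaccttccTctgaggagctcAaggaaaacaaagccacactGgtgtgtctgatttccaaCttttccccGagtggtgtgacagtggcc
Iglc3: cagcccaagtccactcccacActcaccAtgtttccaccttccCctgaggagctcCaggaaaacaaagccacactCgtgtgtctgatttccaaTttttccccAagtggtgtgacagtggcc
In this stretch Iglc1 differed from Iglc2 at 28 of 120 bases and Iglc3 differed from Iglc2 at 7. Over the whole coding part of the constant exon, Iglc2 and Iglc3 were 96.2% identical, and downstream of it 89.5%, with a shared run of 79 bases. Iglc1 was 73.4% identical to Iglc2 and 74.2% to Iglc3, with shared runs of at most 19 bases. The split of reads between Iglc2 and Iglc3 is therefore uncertain, and Iglc1 against their sum is the firmer division.

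The light chain constants were used by the rule, so their levels are a description. Levels are given as CPM, a gene's UMIs scaled to a common total over the summed cells, and 3 values in a row stand for young, aged and aged-GA mice. In lambda B cells Iglc1 stood at 3304, 3997 and 4473 CPM, Iglc2 at 4952, 4595 and 4047 CPM, and Iglc3 at 870.2, 1069 and 1256 CPM. In kappa B cells, Iglc1 stood at 236.5, 361.5 and 306.4 CPM and Iglc2 at 1234, 1332 and 1267 CPM. Iglc3 differed least between the chains, with 549.7, 833.0 and 750.1 CPM in kappa B cells. T cells, which should lack these genes, held Iglc2 at 2.05, 11.2 and 12.4 CPM, below the kappa B cells of the same library. After each cell was thinned to 1000 UMIs, Iglc2 was found in 63.8%, 67.6% and 64.7% of kappa B cells and in 0.325%, 1.39% and 1.87% of T cells. Kappa B cells with at least 5 lambda UMIs made up 61.1%, 74.7% and 78.4%. The requirement that lambda exceed Igkc, and not the minimum of 5 UMIs, thus separated the cells.

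Igkc was present in lambda B cells at 2016, 2612 and 2084 CPM in young, aged and aged-GA mice, against 11471, 10283 and 11384 CPM in kappa B cells. Lambda B cells without any Igkc UMI made up 34.7%, 24.2% and 18.5%. At 1000 UMIs per cell, Igkc was found in 48.3%, 61.0% and 57.9% of lambda B cells and in 1.46%, 13.4% and 16.1% of T cells. T cells were read as a guide to free RNA. They were chosen to hold no UMI of Cd79a, Cd79b or Ms4a1, which can lower their level of it. Without thinning Igkc was found in 65.3%, 75.8% and 81.5% of lambda B cells and in 7.20%, 43.0% and 55.0% of T cells. Median depth of T cells was 5014, 4611 and 5678 UMIs. At least 4 times as many lambda as Igkc UMIs were held by 63.3%, 56.2% and 62.4% of lambda B cells. These purer cells had a kappa V gene in 10.8%, 9.16% and 6.504% of cells, and the remaining lambda B cells in 24.1%, 20.9% and 16.9%. Median depth was 3625, 2895 and 3632 UMIs in the purer cells and 3817, 3200 and 3726 UMIs in the others. Cells close to the border numbered 9, 42 and 27 inside, with lambda above Igkc by under 20%, and 21, 67 and 76 outside, with Igkc equal or above by under 20%. Lambda UMIs of 5 to 9 were held by 9, 27 and 13 members, and 3, 4 and 3 B cells with lambda above Igkc fell short of 5 UMIs.

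**Figure D1:**
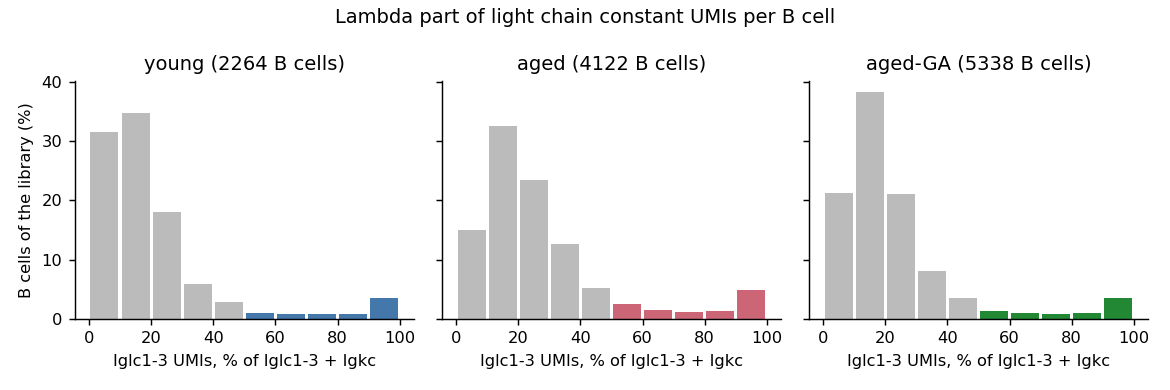
Percent of B cells in each library (vertical axis) by the lambda percent of their light chain constant UMIs in steps of 10 (horizontal axis), with grey bars below 50% and coloured bars above. Counts were low between 60% and 90% and rose again at 90% to 100%, where 79 young, 203 aged and 191 aged-GA B cells lay.

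The lambda share of B cells with a called chain was 6.52% in young mice (interval 5.54% to 7.62%), 10.9% in aged mice (9.97% to 11.9%) and 7.41% in aged-GA mice (6.72% to 8.15%). The aged library was the highest, and its interval did not overlap that of either other library, while those of young and aged-GA mice overlapped. Among cells with a 4-fold excess of the leading chain the shares were 5.70%, 11.1% and 7.03%. As a share of all kept barcodes, lambda B cells made up 1.76%, 4.89% and 3.63%. With 1 library each, age or treatment and the library cannot be told apart.

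Within lambda B cells, the constant gene with the most UMIs in a cell was Iglc1 in 40.8% (32.8% to 49.2%), 40.9% (36.3% to 45.7%) and 51.0% (46.0% to 56.1%) of cells. Iglc2 led in 52.4%, 50.6% and 38.3%, and Iglc3 in 5.44%, 6.71% and 9.14%. Iglc2 led most often in young and aged mice and Iglc1 in aged-GA mice. In cells with a 4-fold excess of lambda over Igkc, Iglc1 led in 44.1%, 47.4% (41.1% to 53.8%) and 54.9% (48.4% to 61.2%), and Iglc2 in 50.5%, 45.8% and 37.4%. Iglc1 then led more often than Iglc2 in aged mice too (119 against 115 cells), but not more often than Iglc2 and Iglc3 (14 cells) together. The intervals of aged and aged-GA mice overlapped.

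**Figure D2:**
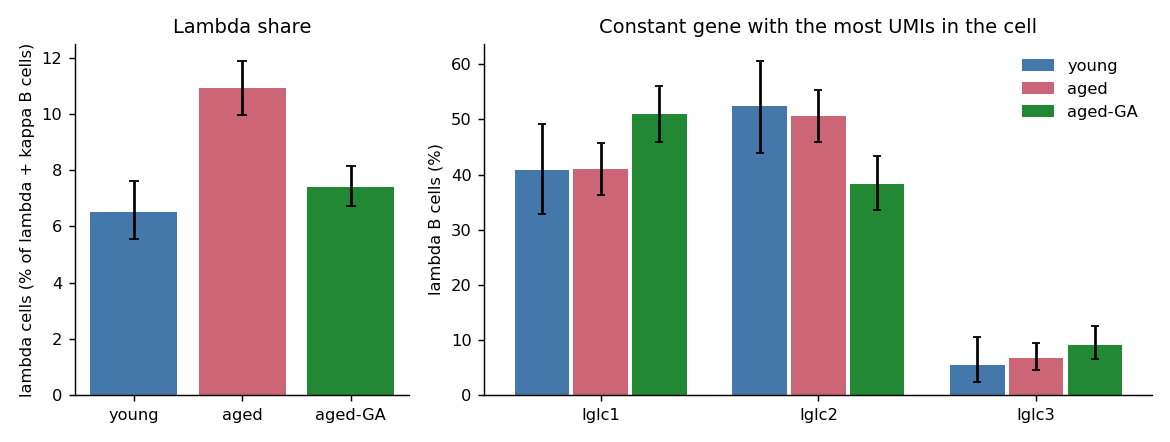
Left, lambda B cells as percent of lambda plus kappa B cells in each library, and right, percent of lambda B cells by the constant gene with the most UMIs. Bars are shares of cells and lines are exact 95% binomial intervals, with the lambda share highest in aged mice at 10.9% and Iglc1 most often leading in aged-GA mice at 51.0%.

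The lambda V genes were not counted by the rule but belong to the chain it chose, so they too are a description. They were sparse in these libraries, which were read from the 3' end. Iglv1 stood at 51.7, 40.1 and 28.7 CPM in lambda B cells and at 3.98, 4.95 and 4.39 CPM in kappa B cells. Iglv2 stood at 9.41, 10.8 and 4.27 CPM in lambda B cells and below 0.4 CPM in each kappa sum. Iglv3 differed less, with 17.3, 16.2 and 11.6 CPM in lambda and 13.6, 8.57 and 6.83 CPM in kappa B cells. Among 120 lambda B cells led by Iglv1, 86 (71.7%) had Iglc1 as their leading constant gene and 25 had Iglc2. Of 27 cells led by Iglv2, 20 (74.1%) had Iglc2 and 7 had Iglc1. Of 45 cells led by Iglv3, 31 (68.9%) had Iglc2, 10 had Iglc1 and 4 had Iglc3. Iglc1 led in 79.2%, 71.4% and 67.5% of Iglv1 cells, and in each library Iglc2 was the most frequent constant gene of Iglv2 and Iglv3 cells. Nearly all of these cells held fewer than 3 UMIs of their V gene.

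**Figure D3:**
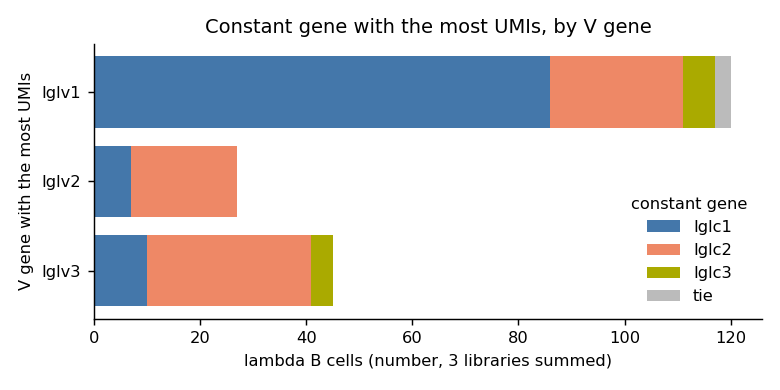
Number of lambda B cells (horizontal axis, 3 libraries summed) by the V gene with the most UMIs, divided by the constant gene with the most UMIs. Iglc1 makes up most of the Iglv1 bar (86 of 120 cells) and Iglc2 most of the Iglv2 and Iglv3 bars.

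To ask how lambda B cells vary among themselves, UMIs of cells led by Iglc1 were compared with those of cells led by Iglc2 or Iglc3 in edgeR's quasi-likelihood test with library as a block. Of 6986 genes tested, 4 (0.0573%) were higher and 3 (0.0429%) lower at a Benjamini-Hochberg adjusted p under 0.05. The 3 constant genes defined the groups and give no finding, and Iglv1, which is joined to a constant gene in the same RNA, is given as a description. It stood at 106.9, 74.9 and 40.0 CPM in Iglc1-led cells and at 20.2, 17.2 and 15.1 CPM in the others, with a fitted log2 fold change of 1.97 ± 0.26 SE. Retnlg, a secreted protein of neutrophils, was higher by 2.45 ± 0.38 (edgeR adjusted p = 0.0133) but had no UMI in young mice, and 1 cell held 60.3% of its UMIs in aged and 94.5% in aged-GA lambda B cells. Cxcl2, a chemokine for neutrophils, was also higher, at 4.28, 108.5 and 33.9 CPM against 0, 25.3 and 18.9 CPM, and 1 cell held 45.8% of its UMIs in aged lambda B cells. Gzmb, the cytotoxic protease granzyme B, was lower and had no UMI in young mice, and 1 cell held 82.1% of its UMIs in aged-GA lambda B cells. Without cells that held at least 10 UMIs of other cell types' markers, Retnlg (0.07) and Cxcl2 (1.07) did not pass the test and Gzmb was not tested. No gene of the lists for follicular, marginal zone, B-1, age-associated, memory or immature B cells passed this test. All 10 genes of major histocompatibility complex (MHC) class II had positive log2 fold changes with a median of 0.12, where the median of all genes was 0.01, and none passed the test. DESeq2 called 2 higher and 2 lower.

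The heavy chain constants were not used by the rule. Ighm, which encodes the mu chain of IgM, stood at 3147, 3551 and 3553 CPM in lambda B cells of young, aged and aged-GA mice and at 2587, 3094 and 3102 CPM in kappa B cells. It was higher in lambda B cells of each library (log2 fold change 0.21 ± 0.03 SE, edgeR adjusted p = 0.00121). Ighd, which encodes the delta chain of IgD, stood at 693.0, 862.7 and 871.0 CPM in lambda and 753.7, 938.9 and 897.1 CPM in kappa B cells and did not pass the test (log2 fold change -0.11 ± 0.04 SE). After thinning to 1000 UMIs and with at least 2 heavy chain UMIs, IgM or IgD led in 99.1%, 98.9% and 99.0% of lambda B cells. Switched classes led in 0.935%, 1.11% and 0.962% of lambda and in 0.139%, 1.30% and 0.925% of kappa B cells, which rest on 1, 4 and 3 lambda B cells. The mean difference over the 3 libraries was 0.214 percentage points (two-sided exact permutation test over library pairs, p = 0.75, where the smallest possible is 0.25). At 2000 UMIs per cell the mean difference was -0.212 points, and in whole cells 0.0419 points. Ighd led over Ighm in 8.41%, 9.14% and 9.62% of lambda and in 13.2%, 11.9% and 11.3% of kappa B cells. None of the 107, 361 and 312 lambda B cells with a called class was led by IgE. With 3 cells taken as the limit of a count of 0, and not the exact interval, up to 2.80%, 0.831% and 0.962% are allowed. This covers counting error only. Ighg1, an IgG chain, was called higher in lambda B cells (2.04 ± 0.45 SE, edgeR adjusted p = 0.049), but 67 of its UMIs lay in 4 aged-GA cells, and without that library the log2 fold change was -0.82.

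The label was checked against B cell genes outside the rule. The 12 genes of B cell identity, such as Pax5 and Ebf1, were all detected in lambda B cells of each library, with a summed level of 7426, 7570 and 7833 CPM, against 7015, 7314 and 7612 CPM in kappa B cells and 143.4, 254.2 and 277.0 CPM in T cells. The most abundant, Ly6d, stood at 2539, 2132 and 2170 CPM. The 8 T cell markers other than the Cd3 genes summed to 45.5, 73.0 and 67.7 CPM. The 4 natural killer (NK) cell markers summed to 3.14, 95.2 and 228 CPM, led by Gzma, and 3 of them were at 0 in young mice. The 5 monocyte markers summed to 227, 2408 and 639 CPM, led in young mice by Cst3 and in the other libraries by Lyz2, with Csf1r, Adgre4 and Ccr2 at 0 in young mice. The 5 neutrophil markers summed to 1.57, 1479 and 3761 CPM, led by S100a8 or S100a9, with 4 of them at 0 in young mice. The 5 red cell markers summed to 1129, 8713 and 6050 CPM, led by Hbb-bs. The 4 platelet markers summed to 0, 16.2 and 4.27 CPM, with Gp9 at 0 throughout. At least 10 UMIs of these T, NK, neutrophil or platelet lists, or of the monocyte list without Cst3, were held by 0, 23 and 8 lambda B cells, and by 26, 151 and 105 kappa B cells. The main results that touch these genes are given with and without those cells.

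Lambda and kappa B cells of the same library were then compared, which gave 3 library pairs. Of 10541 genes tested by edgeR with library as a block, 32 (0.304%) were higher and 22 (0.209%) lower in lambda B cells at an adjusted p under 0.05. Light chain, gate and globin genes, and Gm30211, a noncoding gene that overlaps Igkc on the same strand (chr6:70719074-70740554), were bound to the rule, which left 26 higher and 17 lower. Of these 43 genes, 41 had the same sign in all 3 libraries, which is a description, since the same libraries chose the genes. Leaving aside the fit without the library block, Cd24a, S100a6, Fam129c, Junb and H2-Aa were called under all 11 alternatives and Ighm under the 10 that kept immunoglobulin genes. Without the library block, in which differences between the libraries enter the error, 4 genes were called higher and 2 lower. DESeq2 called 16 higher and 8 lower. The direction of Cxcl2 turned when cells with other markers were left out, from a log2 fold change of -1.03 to 0.36.

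Cd24a, a surface protein that is abundant on immature and transitional B cells, stood at 359.1, 244.9 and 233.6 CPM in lambda and 265.0, 184.8 and 178.5 CPM in kappa B cells of young, aged and aged-GA mice. It was higher in every library, with a log2 fold change of 0.39 ± 0.05 SE (edgeR adjusted p = 0.000825). Sox4, a transcription factor of B cell progenitors, stood at 28.2, 31.1 and 15.9 CPM against 16.1, 14.2 and 9.83 CPM (0.91 ± 0.18 SE, edgeR adjusted p = 0.0186). A single cell held 27.8% of its lambda B cell UMIs in young and 21.15% in aged mice. Of the list of 10 genes of immature and transitional B cells, 5 were tested, all 5 had positive log2 fold changes with a median of 0.68, and only Cd24a was called. The median is the value of Myb or Il7r, which were sparse. Lambda B cells held 7 and 11 UMIs of them in young mice, and 23 and 38 in aged mice. Il7r is also in the list of T cell markers. Vpreb3, an assembly factor of the B cell receptor, had a log2 fold change of 0.21 ± 0.06 SE (edgeR adjusted p = 0.144). Cd93, a surface receptor of transitional B cells, had 0.92 ± 0.25 SE (edgeR adjusted p = 0.141), with 4.70 CPM in lambda and 6.72 CPM in kappa B cells of young mice. Its level was higher in lambda B cells of aged and aged-GA mice only. Of the other list genes, which act in progenitors, Rag2, Dntt and Igll1 were at 0 in lambda B cells of all 3 libraries, Rag1 had 4 UMIs in aged mice, and Vpreb1 had 1 UMI in aged-GA mice.

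Of 10 MHC class II genes, whose products present peptides to helper T cells, 4 were lower in lambda B cells and 6 did not pass the test. Cd74, the invariant chain, stood at 13822, 12352 and 15183 CPM in lambda and 15940, 13510 and 15599 CPM in kappa B cells (log2 fold change -0.14 ± 0.03 SE, edgeR adjusted p = 0.0239). H2-Aa stood at 3335, 3042 and 3758 CPM against 3981, 3397 and 4184 CPM (-0.21 ± 0.03 SE, edgeR adjusted p = 0.00243). H2-Eb1 and H2-Ab1 each had a log2 fold change of -0.20 and were called as well. All 10 genes of the list had negative log2 fold changes, 4 were called, and the median was -0.20, where the median over all genes tested was -0.00. The 4 called genes differed most in young mice, where the log2 ratio of H2-Aa was -0.26. The other 6 genes, among them the peptide loading factors H2-DMa and H2-DMb1 and the transcriptional activator Ciita, did not pass the test.

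Junb, a subunit of the AP-1 factor, stood at 1607, 717.8 and 997.8 CPM in lambda and 1969, 833.2 and 1156 CPM in kappa B cells and was lower (log2 fold change -0.26 ± 0.04 SE, edgeR adjusted p = 0.00236). Of the 13 immediate early genes, 12 had negative log2 fold changes, Junb alone was called and the median was -0.12. Satb1, a chromatin organiser, was lower at 188.2, 214.9 and 249.5 CPM against 278.3, 270.1 and 296.5 CPM (-0.37 ± 0.06 SE, edgeR adjusted p = 0.00747). Cr2, the complement receptor CD21, was lower by 0.43 on the log2 scale and was the only one of 10 follicular genes called, though it was called under 5 of the 11 alternatives only. Hs3st1, Vps37b, Bmyc, Plaur, Lrrk2 and Stk17b were lower, with log2 fold changes between -0.42 and -0.23, and under the 11 alternatives Lrrk2 was called 6 times and Plaur and Stk17b 7 times. Il1b, Cxcl2, Ifitm1 and Lilr4b, genes of myeloid cells, were called lower but were at or below 2 CPM in young mice, and in all but Cxcl2 lambda B cells of young mice had no UMI. Lilr4b was called under 4 and Ifitm1 under 5 of the 11 alternatives. Without cells with other markers Il1b had a log2 fold change of -0.26 and did not pass the test. Hbb-bs, a globin of red cells and so bound to the rule, stood at 620.9, 5301 and 3749 CPM against 703.5, 5772 and 4174 CPM.

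Among the other genes higher in lambda B cells, Fam129c stood at 75.3, 52.7 and 37.8 CPM against 28.8, 32.7 and 23.1 CPM (0.86 ± 0.15 SE, edgeR adjusted p = 0.00574). Pafah1b3, a subunit of an enzyme that inactivates platelet-activating factor, stood at 127.0, 116.1 and 98.8 CPM against 66.3, 73.9 and 74.1 CPM (0.61 ± 0.09 SE, edgeR adjusted p = 0.00143). Akap12, a scaffold for protein kinase A, had 39.2, 35.3 and 13.4 CPM against 11.95, 12.6 and 11.1 CPM, and its difference was small in aged-GA mice. Endou, an endoribonuclease, had 10.98, 5.39 and 7.93 CPM against 1.87, 1.92 and 1.48 CPM (2.10 ± 0.41 SE, edgeR adjusted p = 0.0208). Serinc5, Atp1b1, Actn1, Cecr2, Hdac9, Ccdc28b, Smco4, Dnase1l3 and 1810046K07Rik were each higher in all 3 libraries, with log2 fold changes from 0.73 to 1.63. In young mice, however, the counting intervals of Serinc5 (-0.57 to 1.62), Atp1b1 (-0.65 to 0.87), Actn1 (-0.003 to 2.62) and Smco4 (-0.07 to 2.33) included 0. The log2 fold changes of Arl5c, Manf and St13 were 0.36, 0.31 and 0.28. Under the 11 alternatives Hdac9, Smco4 and 1810046K07Rik were called 7 times, Arl5c 6 times, and Manf and St13 4 times. Mzb1, a chaperone that helps assemble IgM, was higher at 370.0, 386.1 and 397.7 CPM against 298.1, 325.2 and 340.1 CPM. Mzb1 and Cd9, a tetraspanin of marginal zone B cells, were the 2 genes called among 7 tested of the marginal zone list, of which 4 had positive and 3 negative log2 fold changes with a median of 0.08. Each was called under 7 of the 11 alternatives. S100a6, a calcium-binding protein, was higher by 0.51 ± 0.08 SE (edgeR adjusted p = 0.00253), though 37.4% of its young UMIs lay in 1 cell. Saa3 and AA467197 were called higher on single cells, which held 90.1% of Saa3 UMIs in aged and 94.3% of AA467197 UMIs in aged-GA lambda B cells.

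Other lists showed few calls. Of the 12 B-1 genes, 10 had positive log2 fold changes with a median of 0.48, and only S100a6 was called, while Zbtb20 (0.28 ± 0.06 SE, edgeR adjusted p = 0.0612) and Bhlhe41 (0.51 ± 0.14 SE, edgeR adjusted p = 0.139) did not pass. Of the 12 B cell identity genes, Ly6d was called higher and the median was -0.00. None of 22 B cell receptor signalling genes, 17 interferon-stimulated genes, 7 age-associated, 7 memory, 10 chemokine receptor and adhesion, 6 BAFF receptor and survival and 5 cell cycle genes was called by edgeR, with medians of -0.03, -0.01, 0.15, -0.13, -0.10, 0.14 and 0.05. Of 5 plasma cell genes tested, Mzb1 was called and the median was 0.25. Of T cell, NK cell, monocyte and platelet markers none was called, with medians of 0.08, 0.43, 0.10 and 0.03, and neutrophil and red cell markers had medians of 0.18 and -0.14.

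**Figure D4:**
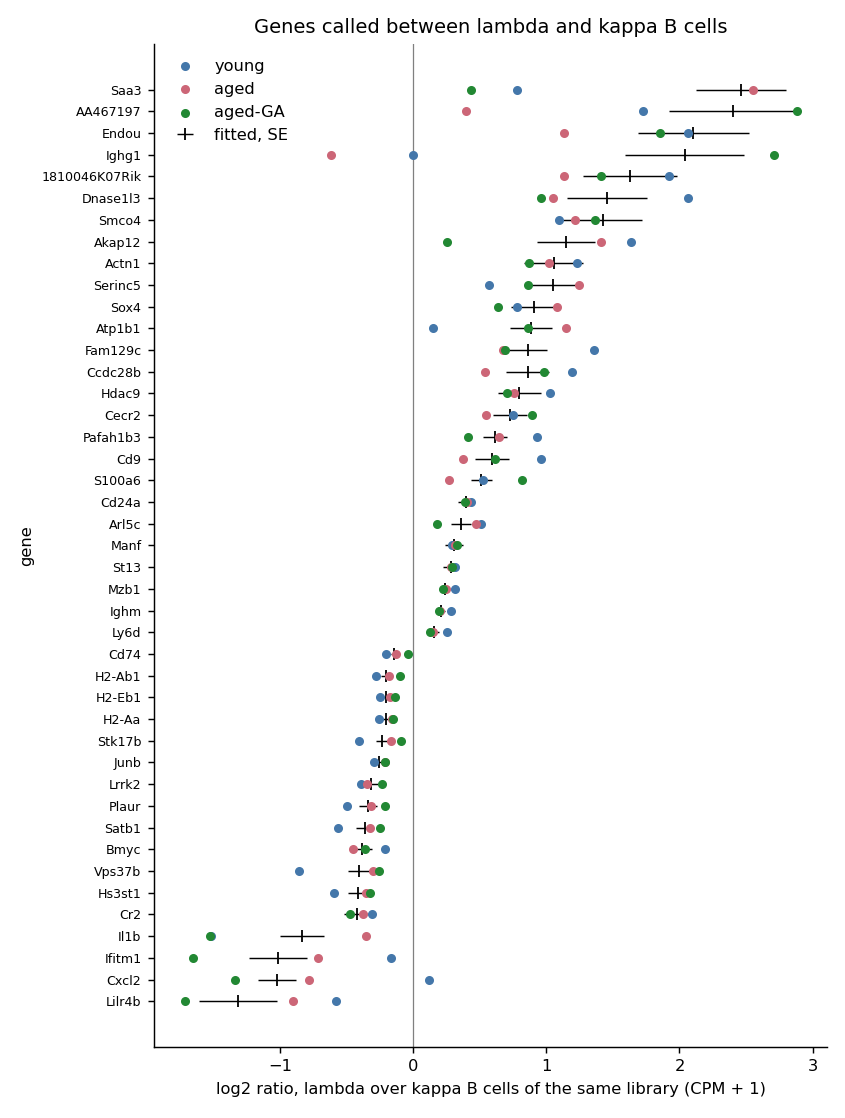
Log2 ratio of CPM + 1, lambda over kappa B cells (horizontal axis), for the 43 called genes outside the rule (vertical axis). Points are the 3 libraries, and black ticks with lines are the fitted log2 fold change ± SE. The same libraries chose the genes, of which 41 lie on one side of 0 in all libraries, Cxcl2 and Ighg1 being the exceptions.

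Aged mice were then compared with young mice within lambda B cells. Genes entered when the pair of libraries held at least 50 UMIs and one of them reached 50 CPM. A gene could therefore enter through the library where it was higher alone, and list medians describe the genes past the minima only. Of 2876 such genes, 221 (7.68%) were at least 2-fold higher in aged mice on the scale of CPM + 1, and 33 (1.15%) at least 2-fold lower. The median log2 ratio over these genes was 0.24, and 0.23 in kappa B cells of the same libraries. Of the 12 largest ratios upward, 4 belonged to the neutrophil list (S100a8, S100a9, Retnlg and Il1b) and 2 to the monocyte list (Lyz2 and Ccr2). S100a9, a subunit of calprotectin, had no UMI in young and 597 CPM in aged lambda B cells, at least 127-fold higher against a floor of 3 UMIs in the young library. Lyz2, lysozyme, stood at 3.14 CPM on 2 UMIs and 1638 CPM, a log2 ratio of 8.63 (7.17 to 12.1). Fcer1g, Chil3, Ifitm2, Ifitm3, Lgals3 and Hp made up the rest, and each of the 12 genes had at most 3 UMIs in young mice. In kappa B cells the log2 ratios of these 12 genes were between 2.64 and 8.40, and in T cells S100a9 stood at 688 CPM in aged against 116 CPM in young mice. Without the 23 aged cells with other markers the log2 ratios in lambda B cells of the 5 genes with a UMI in young mice were 4.87 for Lyz2, 5.18 for S100a8, 4.89 for Fcer1g, 3.60 for Ifitm3 and 4.06 for Lgals3. S100a9 was found in 156 of 447 aged lambda B cells, 1 of which held 28.2% of its UMIs. Over the lists, the median log2 ratio was 3.11 for 4 red cell markers, and 3.24 without cells with other markers. The 4 neutrophil markers past the minima reached 50 CPM in aged mice only. So did Lyz2 and Ccr2 of the 3 monocyte markers past the minima, and no median is given for either list. Gzma alone of the NK cell markers passed the minima (4.46, and 1.07 without cells with other markers), where 1 cell held 62.0% of its aged UMIs and kappa B cells had -0.28, and no T cell or platelet marker did. The part of free RNA and of second cells in these ratios was not tested.

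The 12 largest ratios downward had the same sign in kappa B cells, where they lay between -2.06 and -0.50. Without cells with other markers they lay between -2.01 and -1.29 in lambda B cells. AY036118, a noncoding RNA, stood at 868 CPM in aged against 3533 CPM in young lambda B cells, a log2 ratio of -2.02 (-2.12 to -1.93), and -2.06 in kappa B cells. Gadd45g, Gadd45b and Gadd45a, stress response genes that restrain growth, had log2 ratios of -1.83, -1.79 and -1.65. Gadd45b stood at 91.0 CPM in aged against 316.7 CPM in young mice. Dusp2, a phosphatase of MAP kinases, stood at 225.7 against 735.4 CPM, a log2 ratio of -1.70 (-1.90 to -1.51). Id3, an inhibitor of E proteins, had -1.46, and Tfrc, the transferrin receptor, had -1.42. Taf13, Dnajb4, Hes1, Rab30 and Ddit4 completed the group.

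Immediate early genes had a median log2 ratio of -0.58, aged over young, and -0.66 in kappa B cells. Junb (717.8 CPM in aged, 1607 CPM in young mice) and Cd69 (188.0 and 404.5 CPM), an early activation antigen, were at least 2-fold lower in aged mice, whereas Nr4a1, a nuclear receptor induced by antigen receptor signals, was higher at 118.5 against 34.5 CPM (log2 ratio 1.75, 1.14 to 2.49), and had 0.64 without cells with other markers. Of 21 B cell receptor signalling genes past the minima, Cd22, an inhibitory coreceptor, stood at 229.9 against 84.7 CPM (log2 ratio 1.43, 1.03 to 1.88), and the median was 0.46. In kappa B cells the median was 0.46 as well. Among B cell identity genes Pou2f2 and Cd22 were at least 2-fold higher, and the median was 0.48. MHC class II genes had a median of 0.00, with Ciita at 172.4 against 65.9 CPM and Cd74 at 12352 against 13822 CPM. Of 6 B-1 genes past the minima, Anxa2, S100a6 and Lgals1 were at least 2-fold higher. Without cells with other markers Anxa2 had a log2 ratio of 1.74 and Lgals1 of 0.38. Anxa2, Lgals1 and Bhlhe41 reached 50 CPM in aged mice only, so no median is given. S100a6 stood at 618.4 against 167.8 CPM, a log2 ratio of 1.88, which was 1.08 without cells with other markers. In kappa B cells S100a6 was 2.13 higher on the log2 scale. The integrin genes Itgb1 (67.05 against 7.84 CPM) and Itgal (83.2 against 29.8 CPM) were at least 2-fold higher among 8 chemokine receptor and adhesion genes, with a median of 0.49. Both reached 50 CPM in aged mice only. Without cells with other markers Itgb1 had 2.23 and Itgal had 0.79. Slfn5 (68.85 against 9.41 CPM) alone of 4 interferon-stimulated genes past the minima was at least 2-fold higher, and the median was 0.61. Slfn5 too reached 50 CPM in aged mice only. Medians were 0.23 for follicular, 0.09 for marginal zone, 0.78 for age-associated, -0.09 for memory, -0.18 for immature and transitional, -0.15 for BAFF receptor and survival, and -0.11 for cell cycle genes, and no gene of these lists past the minima was 2-fold different. The memory, immature and transitional, and cell cycle medians each rest on 2 genes past the minima. Zeb2 and Tnfrsf13b, the 2 age-associated genes past the minima, stood at 144.3 and 137.1 CPM in aged against 87.8 and 75.3 CPM in young mice. The 2 plasma cell genes past the minima, Mzb1 and Xbp1, a transcription factor of secretory cells, had a median of 0.55. Xbp1 was at least 2-fold higher (52.7 against 25.1 CPM, and 0.54 on the log2 scale without cells with other markers). It reached 50 CPM in aged mice only.

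Aged-GA mice were compared with aged mice in the same way, and since both comparisons share the aged library they are not independent. Of 2879 genes past the minima, 11 (0.382%) were at least 2-fold higher and 30 (1.04%) at least 2-fold lower in aged-GA mice, and the median log2 ratio was -0.05. The 12 largest ratios upward included S100a8 and S100a9 of the neutrophil list and Gzma of the NK cell list, and further Ngp, Camp, Ltf, Lcn2 and Wfdc21, which encode granule or secreted proteins, and Ccl5 and Nkg7, which cytotoxic lymphocytes use. Ngp stood at 249.5 CPM in aged-GA and 1.197 CPM in aged mice, but 98.3% of its aged-GA UMIs lay in 1 cell. S100a8 stood at 2011 and 583.7 CPM, and 96.5% of its aged-GA UMIs also lay in 1 cell. Without cells with other markers, 8 in aged-GA and 23 in aged mice, S100a8 had a log2 ratio of -0.46, S100a9 of -0.55 and Gzma of -0.35, and Cd86 alone was at least 2-fold higher among the genes then past the minima. Lncpint and Cd86 were spread over many cells. Lncpint, a noncoding RNA, stood at 94.5 against 46.1 CPM (log2 ratio 1.02, 0.63 to 1.45) and was found in 118 aged-GA and 67 aged lambda B cells. Cd86, a costimulatory ligand for T cells, stood at 71.4 against 36.5 CPM (log2 ratio 0.95, 0.51 to 1.44), with 93 and 49 cells. Its log2 ratio was 0.74 in kappa B cells and 1.16 in lambda B cells without cells with other markers.

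The 12 largest ratios downward included Lyz2 and Ccr2 of the monocyte list, with Fn1, F13a1, Lst1, S100a4, Chil3, Ms4a6c, Ifitm3, Fcer1g, Apoc2 and Mpeg1. Lyz2 stood at 354.4 CPM in aged-GA and 1638 CPM in aged mice, a log2 ratio of -2.21 (-2.34 to -2.08), and -1.75 in kappa B cells. Without cells with other markers the log2 ratio of Lyz2 was -1.41 and that of S100a4 -2.56, and 8 genes past the minima were at least 2-fold lower. The medians of the lists were -2.21 for 3 monocyte markers and 0.68 for 4 neutrophil markers, and -1.20 and -0.51 without cells with other markers. Ccr2 and Il1b of these lists reached 50 CPM in aged mice only. The 4 red cell markers had a median of -0.54, and Gzma had 1.11. The part of second cells and free RNA was not tested.

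Among the lists, MHC class II genes had a median of 0.19, aged-GA over aged, and 0.21 in kappa B cells. Cd74 stood at 15183 against 12352 CPM (log2 ratio 0.30, 0.27 to 0.32) and H2-Aa at 3758 against 3042 CPM (0.30, 0.25 to 0.36), and none of the 10 genes was 2-fold different. Interferon-stimulated genes had a median of -0.73, with Ifi27l2a at 700.2 against 1146 CPM. Slfn5, at 32.9 against 68.9 CPM, was the 1 gene past the minima at least 2-fold lower, and reached 50 CPM in aged mice only. In kappa B cells the median of the list was -0.60. Without cells with other markers it was -0.46 in lambda B cells, with Slfn5 at -0.62. Immediate early genes had a median of 0.28, with Junb at 997.8 against 717.8 CPM and Nr4a1 at 60.4 against 118.5 CPM, a log2 ratio of -0.96 that was -0.00 without cells with other markers. B-1 genes had a median of -0.47, and Anxa2 was the 1 gene at least 2-fold lower, at 32.9 against 80.8 CPM, with a log2 ratio of -0.84 without cells with other markers. Anxa2 and Bhlhe41 of this list reached 50 CPM in aged mice only. Memory B cell genes had a median of 0.59 over the 2 genes past the minima, Cd86 and Cd38, of which Cd86 reached 50 CPM in aged-GA mice only. Medians were 0.03 for B cell receptor signalling, -0.04 for B cell identity, 0.08 for follicular, -0.12 for marginal zone, -0.21 for age-associated, -0.18 for immature and transitional, -0.26 for plasma cell, -0.25 for chemokine receptor and adhesion, 0.01 for BAFF receptor and survival, and -0.19 for cell cycle genes. None of the genes in these lists that passed the minima was 2-fold different. The age-associated, immature and transitional, plasma cell and cell cycle medians each rest on 2 genes past the minima.

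**Figure D5:**
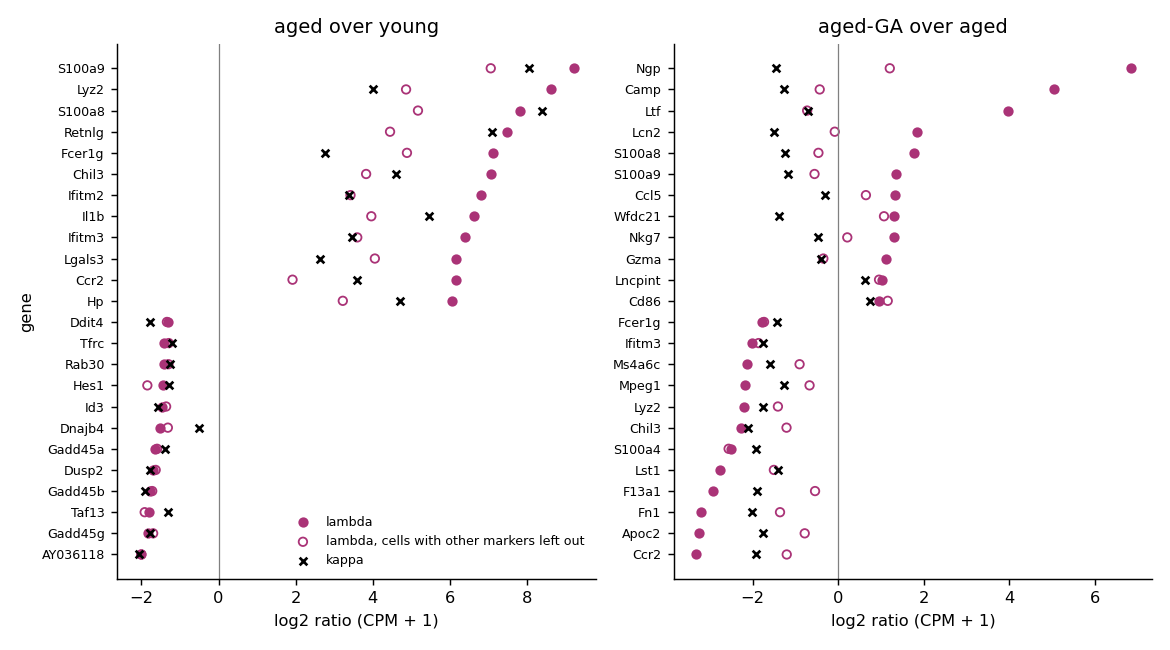
Log2 ratio of CPM + 1 (horizontal axis) between libraries for the 12 genes with the largest ratio each way (vertical axis), aged over young on the left and aged-GA over aged on the right. Filled circles are lambda B cells, open circles lambda B cells without cells with other markers, and crosses kappa B cells. Values of genes with no UMI in young mice depend on the pseudocount. Ngp moved from 6.83 to 1.21 once cells with other markers were left out, whereas Gadd45b stayed near -1.7 to -1.8.

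A V gene of the heavy chain was read in 41.5%, 22.2% and 21.8% of lambda B cells. Those cells were spread over 35, 42 and 44 different Ighv genes, and the most frequent took 5 of 61, 7 of 99 and 7 of 86 cells. It was Ighv3-6 in young and Ighv6-3 in aged mice, while Ighv6-3 and Ighv9-3 were tied in aged-GA mice. In kappa B cells the most frequent Ighv gene took 3.97%, 4.29% and 3.67% of cells. The most frequent gene was picked after counting, and from fewer lambda than kappa B cells, so these shares do not compare the chains.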

How the data were processed

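PBMCs were profiled with 10x Genomics 3' version 3 libraries, 1 per group. The authors mapped reads with Cell Ranger to mm10 and deposited, for each barcode, the raw count of UMIs of every gene, which was used unchanged. The file headers name version 5.0.0, whereas the study's methods name an earlier one, and the annotation was not given in the sources used here. Libraries held 58894294 (young), 82260961 (aged) and 98155671 (aged-GA) UMIs, of which lambda B cells held 637768, 1670396 and 1639543.

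UMIs were summed per library and cell group and scaled to CPM. Lambda over kappa B cells and Iglc1-led over other lambda B cells were tested with edgeR 4.0.16 (quasi-likelihood, TMM, filterByExpr, library as block, Benjamini-Hochberg), with DESeq2 1.42.0 as an alternative. Lambda and kappa cells of a library come from the same blood, which is why library is a block. Both cell groups of a pair share 1 library, and the block takes up level differences between libraries. The p-values therefore rest on how the ratio between the cell groups varies over 3 libraries of different groups. They do not measure the spread between mice or between libraries of the same group. Ratios between libraries used a pseudocount of 1 CPM, which understates the change of low genes, and exact Poisson intervals. PCR duplicates were removed by UMIs, yet intervals cover counting error only. Scripts were tested on simulated data. Doublets were kept. Scrublet (scanpy 1.11.5) chose a threshold in aged-GA mice that called 3 of 10843 barcodes, so a fixed score of 0.2 was used in every library for the alternative without doublets.

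Named genes are the light and heavy chain genes, the genes of the lists, the called genes (for lambda over kappa, the 15 largest changes each way), and the 12 largest ratios each way between libraries, leaving out genes of globins, mitochondria, ribosomal proteins, antibodies and T cell receptors. Other called genes were named after their values were seen. Members and lists were chosen with earlier results of these data known. T cells, used as a guide to free RNA, held at least 3 UMIs of Cd3 genes and none of Cd79a, Cd79b or Ms4a1. The latter limit can lower the level of free RNA read in them. Sequences and positions are those of GENCODE M21.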

Additional observations from a re-analysis of the deposited data

Results flagged for a closer look

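Among the largest ratios and the list genes past the minima, 12 genes had opposite signs in lambda and kappa B cells, aged-GA over aged, and Gzma had them aged over young, with counting intervals on either side of 0. With 1 library per group the difference was not tested. Gzma had 4.46 in lambda and -0.28 in kappa B cells aged over young. The values that follow are aged-GA over aged. On the log2 scale, lambda and kappa B cells had 6.83 and -1.45 for Ngp, 5.04 and -1.26 for Camp, 3.96 and -0.71 for Ltf, and 1.84 and -1.50 for Lcn2. They had 1.78 and -1.23 for S100a8, 1.36 and -1.17 for S100a9, and 1.31 and -1.38 for Wfdc21. They had 1.34 and -0.32 for Ccl5, 1.30 and -0.47 for Nkg7, and 1.11 and -0.40 for Gzma. They had 0.54 and -0.46 for Lgals1, and -0.55 and 0.18 for Egr1, which had 0.30 in lambda B cells without cells with other markers. For each of Ngp, Camp, Ltf, Lcn2, S100a8 and S100a9, 1 cell held over 90% of the aged-GA lambda UMIs, and without cells with other markers the log2 ratios of Ngp, Ccl5, Wfdc21 and Nkg7 were 1.21, 0.65, 1.07 and 0.21, with Ngp and Wfdc21 then under the minima.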

How the results depend on the processing

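The lambda share stayed within its counting interval in each library under 7 alternatives. For lambda over kappa B cells, genes called higher and lower numbered 32 and 22, and 16 and 8 with DESeq2, 58 and 84 with no filter on low counts, 56 and 37 with a 4-fold excess of the leading chain, 49 and 40 without doublets, and 67 and 50 without cells with other markers. Lambda and kappa cells are paired by library, and without this replicate block 4 and 2 genes were called. Leaving out 1 library gave 24 to 47 higher and 7 to 26 lower, the lowest without the aged library. Signs turned for Ighg1, which ranged from -0.82 (without the aged-GA library) to 2.92 (without the aged library), and for Cxcl2 without cells with other markers (0.36). For Iglc1-led over other lambda B cells, 4 and 3 genes became 2 and 2 with DESeq2, 18 and 7 with no filter, 6 and 13 with the 4-fold excess, and 2 and 7 without cells with other markers, and leaving out 1 library gave 5 to 10 higher and 3 to 7 lower, with 10 and 7 without the young and 6 lower without the aged-GA library.

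Aged over young, 221 and 33 genes at least 2-fold higher and lower became 140 higher with a pseudocount of 10 CPM, 1130 and 102 with at least 20 UMIs and no minimum of CPM, and 357 higher with the 4-fold excess. Aged-GA over aged, 11 and 30 became 77 and 277 with at least 20 UMIs, 17 and 55 with the 4-fold excess, 15 lower without doublets, 5 higher with each cell weighted equally, and 1 and 8 without cells with other markers. That last alternative turned Camp (-0.43), Ltf (-0.72), Lcn2 (-0.079), S100a8 (-0.46), S100a9 (-0.55) and Gzma (-0.35). The share of cells led by Iglc1 in aged mice was 47.4% with the 4-fold excess, and Igkc in aged lambda B cells was 2700 CPM without doublets. Switched cells were 0 in young mice at 2000 UMIs per cell and 0 in aged mice with the 4-fold excess. With at least 3 UMIs of the V gene, 1 cell each was left for Iglv1, Iglv2 and Iglv3, and 100% of them had the leading constant gene named in the text. The causes of these shifts were not tested. Leaving out cells with other markers and the fixed Scrublet score were chosen after seeing the data.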
